A study of Mus musculus with 12 samples.

Results

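The striatum of R6/2 mice given vehicle was compared with that of wild-type mice given vehicle, in 3 mice per genotype and across all 15397 genes of the deposited table. These 6 libraries are part of a series of 12. R6/2 mice carry a transgene with the first exon of human HTT, driven by the human promoter, with an expanded CAG repeat. Both copies of the mouse Htt gene are kept, so the line models the effect of a mutant huntingtin fragment added to normal huntingtin. All mice were labelled C57BL/6. Vehicle was given from week 7 to week 11 of age. The other 6 mice, 3 R6/2 and 3 wild type, were fed chow with 275 ppm of PLX3397 over the same weeks, a compound that blocks Csf1r and so depletes microglia. They were used here to share the estimate of spread and to read the same genotype difference in other animals. Through that estimate they entered the calls. Each library comes from 1 mouse, so the p-values below measure the spread between mice.

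Most neurons of the striatum are GABA-releasing projection neurons, which receive glutamate from cortex and thalamus and dopamine from the midbrain. Cells of the indirect pathway carry the dopamine receptor Drd2, the adenosine receptor Adora2a and enkephalin, and cells of the direct pathway carry Drd1, dynorphin and substance P. Dopamine and adenosine act through cyclic AMP in both. Huntington's disease affects these neurons first, and loss of their signalling transcripts is known from patients and from mouse models.

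The genotype labels were checked first. Gm12695, a gene on chromosome 4 at the reported insertion site of the R6/2 transgene (GRCm38, chromosome 4, 96723581 to 96786830), had 1.87, 4.04 and 3.08 CPM, reads scaled to library size, in R6/2 libraries 1 to 3, against 0.478, 0.632 and 0.219 CPM in wild-type libraries 1 to 3. The groups did not overlap. It was 7.06-fold higher, a log2 difference of 2.82 ± 0.50 (SE, as for all differences below; limma adjusted p = 0.0296). None of the 15 other measured genes within 2 Mb of it was called, with log2 differences from -1.31 to 2.04. Among all genes 0.617% were called higher and 1.49% lower. The adjusted p was 0.109 without R6/2 library 2, 0.0736 without R6/2 library 3, and 0.127 and 0.0856 without wild-type library 1 or 2. The mouse gene Htt, whose counts could also hold reads of the human exon, differed by 0.21 ± 0.28 (adjusted p = 0.683), with 157, 274 and 247 CPM in R6/2 mice and 188, 204 and 178 CPM in wild-type mice. All 16 striatal projection neuron markers were detected in both genotypes.

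Of the 15397 genes, 95 were called higher in R6/2 (0.617%) and 230 lower (1.49%), at a limma adjusted p under 0.05. Of the falls, 186 exceeded 2-fold and 77 exceeded 4-fold. Of the rises, 39 exceeded 2-fold and 10 exceeded 4-fold. The median log2 difference was -1.60 among called falls and 0.83 among called rises, and 0.01 among all genes. For all 325 called genes the groups did not overlap. Among all genes 16.4% were higher in every R6/2 library than in every wild-type library and 17.1% were lower. Which mice were included decided many calls. Without wild-type library 1 or 2, Irf7 was the 1 gene still called, and without R6/2 library 2 Irf7 and Sstr5 were. The count was 79 without R6/2 library 1, 51 without R6/2 library 3 and 471 without wild-type library 3, with 251 of the 325 among them. It was 561 and 162 without wild-type PLX3397 library 1 or 3, which bear on the shared estimate of spread. A model of the 6 vehicle libraries alone called 429 genes, 211 of them among the 325.

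Markers of neighbouring tissue differed between the 6 libraries, and the part of such tissue in the results below was not tested. The 15 markers of cortical excitatory neurons summed to 919.9, 2236 and 1723 CPM in R6/2 mice and to 1053, 618 and 1146 CPM in wild-type mice. The 17 markers of thalamus, septum, pallidum and hypothalamus summed to 259.9, 91.4 and 98.9 CPM in R6/2 mice and to 226, 501 and 556 CPM in wild-type mice. R6/2 library 1 held 4387 CPM of Ttr, the transthyretin of choroid plexus, and the other 5 held 34.5 to 68.1 CPM. With the mean of the cortical markers as a covariate 94 genes were called, 90 of them among the 325, and without R6/2 library 1 and wild-type PLX3397 library 1, which was also high in Ttr, 103 were called, 82 of them among the 325. In bulk tissue, fewer cells of a type and less RNA per cell cannot be told apart.

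**Figure D1:**
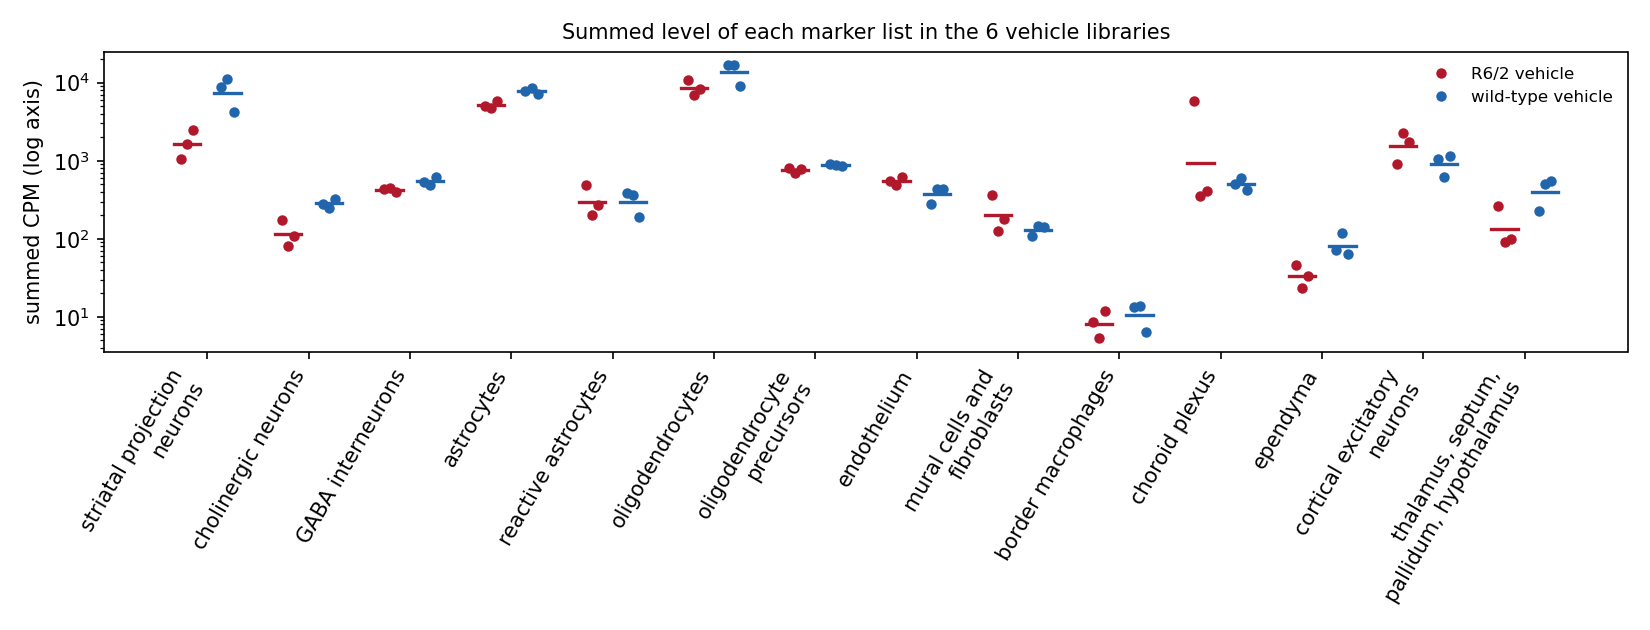
Summed CPM (log axis) of each marker list in the 3 R6/2 (red, left) and 3 wild-type (blue, right) vehicle libraries, where each point is 1 mouse and each line the geometric mean of 3. The projection neuron sum was 1059 to 2453 CPM in R6/2 mice, below the 4244 to 11155 CPM of wild-type mice, and 1 R6/2 mouse stands far above the others in choroid plexus genes.

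Transcripts of striatal projection neurons were lower in R6/2 mice across peptides, receptors and second messenger proteins. Of 16 markers of these cells 6 were called lower, 0 were called higher and 15 were lower in every R6/2 library. Their median log2 difference was -2.34. Penk, the enkephalin precursor of the indirect pathway, had 101, 68.4 and 179 CPM in R6/2 mice, against 1077, 1136 and 627 CPM in wild-type mice. Every R6/2 value lay below every wild-type value, and Penk fell by 3.09 ± 0.38 on the log2 scale (limma adjusted p = 0.0161). Pdyn, the dynorphin precursor of the direct pathway, had 6.75, 4.90 and 11.7 CPM in R6/2 mice, against 42.8, 35.6 and 33.1 CPM in wild-type mice. It fell by 2.34 ± 0.40 (adjusted p = 0.0283). Tac1, the precursor of substance P in the same direct-pathway cells, had 55.4, 50.2 and 89.5 CPM in R6/2 mice and 203, 183 and 96.0 CPM in wild-type mice. Wild-type library 3 came close to the highest R6/2 library, and the difference of -1.28 ± 0.39 missed the threshold (adjusted p = 0.103). Penk and Pdyn were the 2 called genes among 25 neuropeptide precursors, whose median was -0.87. Without R6/2 library 2 or wild-type library 1 or 2 neither was called (adjusted p 0.0597 to 0.128), and Pdyn was not called without R6/2 library 1 (0.0721).

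The 3 receptors that define the pathways were low in every R6/2 library, and each missed the threshold by little. Adora2a, the adenosine receptor that raises cyclic AMP in indirect-pathway cells, had 27.1, 33.3 and 62.0 CPM in R6/2 mice, against 306, 362 and 131 CPM in wild-type mice (log2 difference -2.67 ± 0.61, limma adjusted p = 0.0510). Drd2, which lowers cyclic AMP in the same cells, had 12.5, 18.5 and 34.9 CPM in R6/2 mice and 127, 173 and 63.7 CPM in wild-type mice (-2.48 ± 0.57, adjusted p = 0.0523). Drd1, which raises it in the direct pathway, had 16.7, 39.6 and 57.3 CPM in R6/2 mice and 215, 258 and 89.3 CPM in wild-type mice (-2.34 ± 0.60, adjusted p = 0.0681). In all 3 genes R6/2 library 3 was the highest of its group and wild-type library 3 the lowest of its group. Without wild-type library 3 the 3 genes were called, at adjusted p = 0.0393, 0.0401 and 0.0440. None of the 3 was called without R6/2 library 2 or wild-type library 1 or 2.

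Other receptors with less spread within the genotypes passed. Of 35 G protein-coupled receptors of striatum 7 were called lower and 0 higher, with 23 lower in every R6/2 library and a median of -1.56. Hrh3, the histamine receptor that restrains transmitter release, had 25.0, 37.5 and 39.2 CPM in R6/2 mice, against 109, 119 and 89.5 CPM in wild-type mice. It fell by 1.66 ± 0.22 (limma adjusted p = 0.0161), and its groups were far apart relative to their spread. Oprk1, the dynorphin receptor, had 3.34, 7.79 and 9.18 CPM in R6/2 mice and 47.0, 39.6 and 33.3 CPM in wild-type mice and fell by 2.67 ± 0.51 (adjusted p = 0.0326). Gpr6, an orphan receptor enriched in indirect-pathway cells, fell by 2.57 ± 0.50 (adjusted p = 0.0341), Gpr83 by 1.78 ± 0.31 (0.0288) and the adrenergic receptor Adra2c by 1.29 ± 0.23 (0.0307). The neurokinin receptor Tacr1, which cholinergic interneurons use to read substance P, fell by 2.08 ± 0.46 (0.0466), and the purinergic receptor P2ry1 by 1.45 ± 0.33 (0.0482). Of Gpr6, Hrh3, Gpr83, Oprk1 and Adra2c none was called without R6/2 library 2 or wild-type library 1 or 2 (adjusted p 0.0597 to 0.158), and without R6/2 library 1 or 3 Hrh3 alone was (0.0407 and 0.0389).

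Proteins that carry the dopamine and adenosine signal inside the cell fell with the receptors. Of 39 genes of cyclic AMP and G protein signalling 9 were called lower and 0 higher, 26 were lower in every R6/2 library, and the median was -1.02. Ppp1r1b, the phosphatase inhibitor DARPP-32 that integrates dopamine and glutamate input, had 120.4, 133 and 270.0 CPM in R6/2 mice, against 1068, 1374 and 538 CPM in wild-type mice. It fell by 2.50 ± 0.54 (limma adjusted p = 0.0444). Rgs9, which switches off G protein signals downstream of dopamine receptors, had 53.7, 84.6 and 140.1 CPM in R6/2 mice and 611, 838 and 286 CPM in wild-type mice. It fell by 2.61 ± 0.50 (adjusted p = 0.0321). R6/2 library 3 was again the highest of its group in both genes and wild-type library 3 the lowest of its group. Rgs2, another regulator of G proteins, spread less, with 38.9, 34.9 and 54.2 CPM in R6/2 mice and 132, 116 and 103 CPM in wild-type mice (-1.48 ± 0.21, adjusted p = 0.0161). Ppp1r1a, a phosphatase inhibitor of the DARPP-32 family, had 36.4, 38.5 and 41.1 CPM in R6/2 mice and 101, 86.6 and 81.0 CPM in wild-type mice (-1.21 ± 0.18, adjusted p = 0.0181). Rasgrp2, which activates the small GTPase Rap1, fell by 2.28 ± 0.36 (0.0232). Pde1c, a calcium-dependent phosphodiesterase, fell by 1.54 ± 0.23 (0.0181), while the projection neuron phosphodiesterase Pde10a had 79.4, 188 and 242 CPM in R6/2 mice and 1362, 2025 and 458 CPM in wild-type mice and missed the threshold (-2.82 ± 0.69, 0.0616). The remaining 3 called members were Arpp21, Arpp19 and Rap1gap. None of the 9 was called without R6/2 library 2 or wild-type library 1 or 2 (adjusted p 0.0699 to 0.198). Without R6/2 library 1, 4 of the 9 were called, without R6/2 library 3, 3 were, and without wild-type library 3, 8 were (all but Rap1gap).

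**Figure D2:**
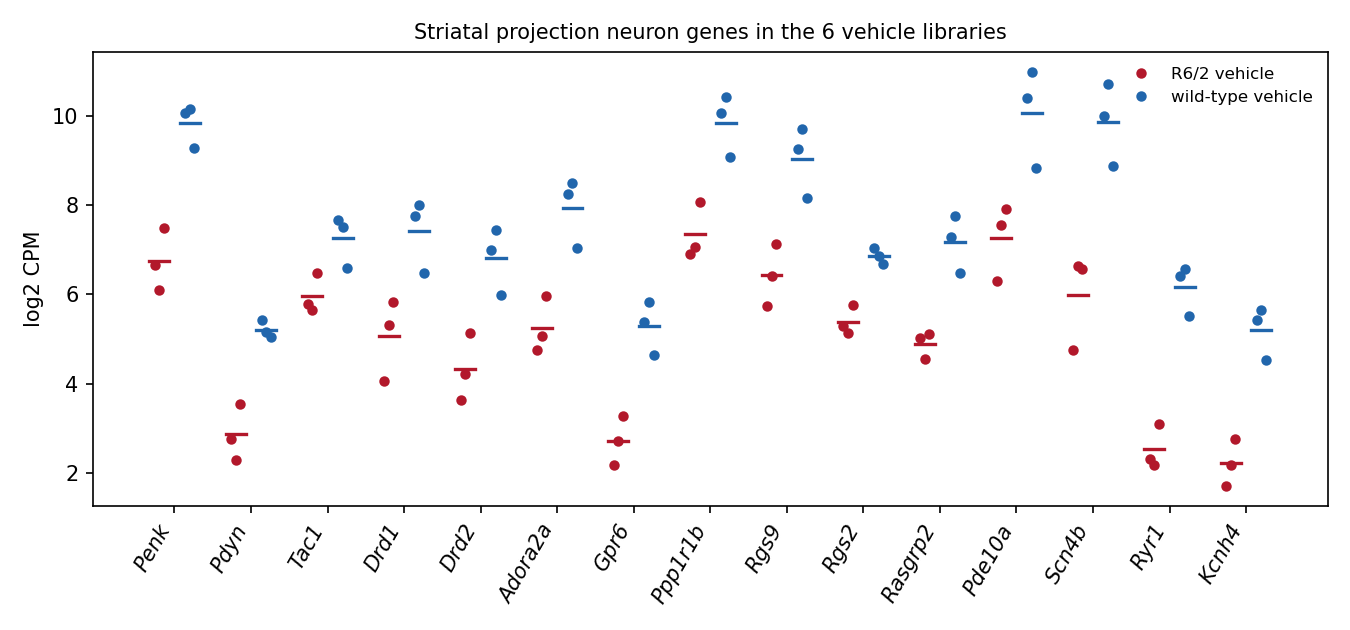
Level (log2 CPM) of 15 projection neuron genes in the 3 R6/2 (red, left) and 3 wild-type (blue, right) vehicle libraries, where each point is 1 mouse and each line the mean of 3. The groups did not overlap in any of the 15 genes, and wild-type library 3 lies below the other wild-type libraries in Drd1, Drd2, Adora2a, Pde10a and Scn4b.

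Ion channels, calcium stores and synaptic proteins held some of the steepest falls. Ryr1, a calcium release channel of the endoplasmic reticulum, had 4.93, 4.55 and 8.50 CPM in R6/2 mice, against 85.8, 94.5 and 45.9 CPM in wild-type mice, which made it 12.5-fold lower (log2 difference -3.64 ± 0.51, limma adjusted p = 0.0161). Scn4b, a sodium channel subunit of projection neurons, had 27.1, 99.8 and 95.4 CPM in R6/2 mice and 1026, 1680 and 469 CPM in wild-type mice (-3.87 ± 0.70, adjusted p = 0.0310). The groups of both genes were separated by more than 4-fold at their nearest values. Kcnh4 was the 1 called gene among 46 potassium channel genes (median -0.53) and fell by 2.98 ± 0.51 (adjusted p = 0.0273). Among 40 sodium and calcium channel and store genes (median -0.49) 4 were called, all lower: Ryr1, Scn4b, Cacng4 and Cacna2d2, of which Cacna2d2, an auxiliary calcium channel subunit, fell by 1.34 ± 0.23 (0.0273). Of 38 postsynaptic density genes (median -0.65) Grm4 and Grm5, metabotropic glutamate receptors, were called lower, and Grm5 had 70.2, 112 and 126 CPM in R6/2 mice and 396, 415 and 228 CPM in wild-type mice (-1.75 ± 0.38, 0.0452). Of 39 synaptic vesicle genes (median -0.22) 4 were called lower: Rab3b, Cplx2, Slc32a1 and Slc17a8. None of 16 GABA receptor genes was called by limma (6 at an unadjusted p under 0.05), with a median of -0.74. Without R6/2 library 2 or wild-type library 1 or 2 none of Ryr1, Scn4b, Kcnh4, Grm4, Grm5, Cacng4, Cacna2d2, Rab3b, Cplx2 and Slc17a8 was called (adjusted p 0.0699 to 0.199), without R6/2 library 1 or 3 Ryr1 alone was (0.0407 and 0.0391), and without wild-type library 3 all but Rab3b were.

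Transcription factors that specify the projection neuron lineage were lower too. Of 22 on that list 5 were called lower, 0 higher, 13 were lower in every R6/2 library and 1 was higher in every R6/2 library, with a median of -1.20. Dlx6, a homeobox factor of GABA neurons, had 6.83, 5.86 and 11.0 CPM in R6/2 mice, against 25.7, 30.1 and 22.3 CPM in wild-type mice (log2 difference -1.77 ± 0.29, limma adjusted p = 0.0235). Sp9, needed for indirect-pathway neurons, had 7.20, 7.03 and 11.7 CPM in R6/2 mice and 24.2, 30.0 and 22.1 CPM in wild-type mice (-1.59 ± 0.28, adjusted p = 0.0296). Isl1, a factor of direct-pathway and cholinergic neurons, had 6.79, 7.03 and 10.7 CPM in R6/2 mice and 20.7, 18.2 and 18.5 CPM in wild-type mice (-1.26 ± 0.24, adjusted p = 0.0323). The wild-type values of each of these genes lay close together and above every R6/2 value. Dlx5 and Six3 were the other two. Antisense transcripts overlap Dlx6 and Six3, and since use of strand in counting is not given in the sources used here, reads of the pairs cannot be told apart. None of the 5 was called without R6/2 library 1 or 2 or wild-type library 1 or 2 (adjusted p 0.0587 to 0.198), and Dlx5 was not called without R6/2 library 3 (0.0632) or wild-type library 3 (0.0514).

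Outside these lists, the falls with the smallest p or largest size included Abhd11os, an opposite-strand transcript of Abhd11 that could share reads with it, with 1.64, 1.15 and 1.33 CPM in R6/2 mice and 8.05, 12.1 and 5.77 CPM in wild-type mice (log2 difference -2.60 ± 0.28, limma adjusted p = 0.0117). Syt12, a synaptotagmin of synaptic vesicles, had nearly equal values within each genotype: 18.4, 19.2 and 17.1 CPM in R6/2 mice and 36.6, 37.3 and 37.6 CPM in wild-type mice (-1.03 ± 0.13, adjusted p = 0.0161). Fst, the activin antagonist follistatin, had 0.658, 0.850 and 0.762 CPM in R6/2 mice and 3.68, 6.40 and 4.53 CPM in wild-type mice (-2.66 ± 0.36, 0.0161). The groups of these 3 genes did not overlap. Inhba, which encodes an activin subunit, fell by 3.38 ± 0.71 (0.0405). Ptpn7, a tyrosine phosphatase, fell by 4.09 ± 0.83 (0.0375), Ankk1, a kinase gene next to Drd2 on chromosome 9, by 3.70 ± 0.72 (0.0351), Dmkn, a secreted epithelial protein, by 3.17 ± 0.46 (0.0161) and the somatostatin receptor Sstr5 by 3.14 ± 0.57 (0.0311). Lmo2, a transcriptional cofactor, fell by 1.35 ± 0.19 (0.0161) and the ubiquitin ligase Traip by 1.64 ± 0.23 (0.0161). Of these 10 genes none was called without wild-type library 1 or 2 (adjusted p 0.0580 to 0.181) and Sstr5 alone without R6/2 library 2 (0.0440), against 7 without R6/2 library 1 and 6 without R6/2 library 3.

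Cholinergic neurons are sparse interneurons of the striatum and also populate the septum and basal forebrain next to it. Of 9 of their markers 7 were called lower and 0 higher, 8 were lower in every R6/2 library, and the median was -2.50. Slc5a7, the choline transporter, had 1.91, 1.91 and 6.13 CPM in R6/2 mice, against 54.3, 48.5 and 22.99 CPM in wild-type mice (log2 difference -3.80 ± 0.60, limma adjusted p = 0.0230). Chat, which makes acetylcholine, had 1.23, 2.47 and 4.84 CPM in R6/2 mice and 24.5, 25.1 and 10.9 CPM in wild-type mice (-2.94 ± 0.60, adjusted p = 0.0377). Lhx8, the factor that specifies these cells, had 1.26, 0.547 and 3.55 CPM in R6/2 mice and 13.9, 8.20 and 17.5 CPM in wild-type mice (-3.22 ± 0.61, adjusted p = 0.0321). The vesicular transporter Slc18a3, Isl1 and the peptidase Ecel1 were also called. Genes of septum and basal forebrain moved with them: of 17 markers of thalamus, septum, pallidum and hypothalamus 3 were called lower (Lhx8, Zic1 and Gbx1), with a median of -1.18 and the sums given above. Zic1, a zinc finger factor of septum, had 13.5, 6.72 and 9.38 CPM in R6/2 mice and 45.4, 115 and 109.9 CPM in wild-type mice (-3.13 ± 0.68, adjusted p = 0.0444). Gbx1, a homeobox factor of basal forebrain, had 1, 2 and 4 reads in R6/2 mice and 87, 28 and 84 reads in wild-type mice. The part of neighbouring septal or basal forebrain tissue in the cholinergic falls was not tested. Without R6/2 library 2 or wild-type library 1 or 2 none of Slc5a7, Chat, Slc18a3, Lhx8, Ecel1, Zic1 and Gbx1 was called (adjusted p 0.0856 to 0.188). Of the same 7, Ecel1 alone was called without R6/2 library 1 (0.0454), Slc5a7 and Lhx8 without R6/2 library 3, and Slc5a7, Chat, Slc18a3 and Gbx1 without wild-type library 3. None of the 7, nor Isl1, was called with limma-voom, without the 2 libraries high in Ttr or with the replicate number as a block. With the cortical markers as a covariate Slc5a7 and Slc18a3 alone were.

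The enzymes and transporter of GABA release, which projection neurons and interneurons share, were lower; Gad1 and Gad2 were chosen after their values were seen. Gad1, a glutamate decarboxylase, had 239, 285 and 349 CPM in R6/2 mice, against 772, 1069 and 754 CPM in wild-type mice (log2 difference -1.57 ± 0.22, limma adjusted p = 0.0161). Gad2, its synaptic counterpart, had 129, 157 and 224 CPM in R6/2 mice and 619, 626 and 627 CPM in wild-type mice (-1.92 ± 0.36, adjusted p = 0.0321). Slc32a1, the vesicular GABA transporter, had 113, 125 and 159.8 CPM in R6/2 mice and 214, 267 and 265 CPM in wild-type mice (-0.91 ± 0.20, adjusted p = 0.0432). In each gene the R6/2 libraries lay well below the lowest wild-type library. None of 15 markers of GABA interneurons, such as Sst, Npy and Pvalb, was called by limma (3 at an unadjusted p under 0.05), and their median was -0.56. Without R6/2 library 2 or wild-type library 1 or 2 none of the 3 genes was called (adjusted p 0.0699 to 0.185), and Gad1 alone was without R6/2 library 1 (0.0407) or 3 (0.0391). Slc32a1 was not called without wild-type library 3 (0.0657).

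Several astrocyte transporters were lower. Of 18 astrocyte markers 3 were called lower and 0 higher, 9 were lower in every R6/2 library, and the median was -0.46. Slc4a4, a sodium bicarbonate cotransporter, had 129, 136 and 179 CPM in R6/2 mice, against 336, 433 and 276 CPM in wild-type mice (log2 difference -1.22 ± 0.23, limma adjusted p = 0.0326). Slc7a11, the cystine and glutamate exchanger of astrocytes, had 25.9, 26.6 and 29.7 CPM in R6/2 mice and 95.6, 83.2 and 54.9 CPM in wild-type mice (-1.47 ± 0.21, adjusted p = 0.0161). The gap junction protein Gja1 fell by 1.04 ± 0.20 (0.0332), the glutamate transporter Slc1a3 by 0.75 ± 0.16 (0.0405) and the lipid phosphatase Plpp3, chosen after its values were seen, by 0.97 ± 0.14 (0.0161). Gfap, the intermediate filament that reactive astrocytes raise, had 300.0, 91.0 and 168 CPM in R6/2 mice and 311, 268 and 109.6 CPM in wild-type mice. Its groups overlapped (-0.33 ± 0.58, adjusted p = 0.771), and 0 of 12 reactive astrocyte genes were called by limma (3 at an unadjusted p under 0.05). Ugt8a, which makes the myelin lipid galactosylceramide, was the 1 called gene of 20 oligodendrocyte markers (median -0.54) and fell by 1.54 ± 0.29 (0.0320), and 0 of 15 precursor markers were (3 at an unadjusted p under 0.05; median -0.24). Of Slc4a4, Gja1, Slc1a3, Ugt8a, Slc7a11 and Plpp3 none was called without R6/2 library 2 or wild-type library 1 or 2 (adjusted p 0.0699 to 0.170), and Slc7a11 and Plpp3 were without R6/2 library 1 or 3. Slc1a3 was not called without wild-type library 3 (0.0614).

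Of the 47 gene lists, interferon-stimulated genes held the most called rises. Type I interferons bind a receptor pair that activates a complex with the factor Irf9, which binds interferon-stimulated response elements in the promoters of antiviral genes. Irf7, itself such a target, raises further interferon production. In the promoter sequences of RefSeq (GRCm38), the element's core GAAANNGAA was searched on both strands in the 250 bases before each start. It was present in 13 of 80 called rises with an entry (16.2%), in 15 of 164 called falls (9.15%), in 19 of 43 interferon-stimulated genes (44.2%) and in 702 of 11814 promoters of all genes tested (5.94%). These shares are descriptions without a test. Of the 13 called rises with the core, Ifit1, Oas1a and Trim30a are on the interferon list. Irgm1, Igtp, Gbp5, Myd88, Dgka, Dhx37, Rbm28, Sec23b, Sh3bp5l and Wrap73 are not. Parts of the promoters of 5 interferon-induced genes among the 13 are shown because these genes carry the results below. They are read 5′ to 3′ on the strand of the gene, with every base of a match on either strand in capitals. Overlapping matches run together.
Ifit1 (chr19:34640750-34640843, plus strand, 3 matches): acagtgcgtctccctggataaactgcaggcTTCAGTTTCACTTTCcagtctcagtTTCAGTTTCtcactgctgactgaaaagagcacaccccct
Irgm1 (chr11:48871421-48871480, minus strand, 2 matches): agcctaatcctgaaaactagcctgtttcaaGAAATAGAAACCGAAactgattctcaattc
Igtp (chr11:58199492-58199555, plus strand, 1 match): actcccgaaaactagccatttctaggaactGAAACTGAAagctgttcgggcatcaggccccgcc
Oas1a (chr5:120907526-120907575, minus strand, 2 matches): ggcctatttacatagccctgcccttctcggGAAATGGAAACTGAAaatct
Gbp5 (chr3:142496740-142496808, plus strand, 1 match): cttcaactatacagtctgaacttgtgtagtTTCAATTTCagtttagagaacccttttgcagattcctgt
The match nearest to the start began 84 bases before it in Ifit1, 24 in Irgm1, 34 in Igtp, 14 in Oas1a and 164 in Gbp5. The cyclic AMP response element TGACGTCA was present in 2 of 164 called falls (1.22%) and in 2.71% of all promoters, and the sterol regulatory element TCACNCCAC in 1 of 164 (0.610%) and in 0.914%.

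Of 57 measured interferon-stimulated genes 14 were called higher and 0 lower, 41 were higher in every R6/2 library and 0 were lower in every one, and the median log2 difference was 0.88. Irf7 had 13.3, 9.86 and 10.2 CPM in R6/2 mice, against 1.53, 2.39 and 1.80 CPM in wild-type mice. The lowest R6/2 value was over 4 times the highest wild-type value, and the log2 difference of 2.56 ± 0.23 had the smallest adjusted p of all genes (limma, 0.00368). Its adjusted p stayed between 0.00225 and 0.0329 in all 23 alternatives, each single library left out included. Usp18, which damps the interferon receptor, had 6.41, 2.98 and 3.19 CPM in R6/2 mice and 0.644, 0.992 and 0.945 CPM in wild-type mice (2.22 ± 0.37, adjusted p = 0.0238). Ifit1, which binds viral RNA, had 8.72, 6.42 and 7.52 CPM in R6/2 mice and 1.91, 3.15 and 1.89 CPM in wild-type mice (1.74 ± 0.35, adjusted p = 0.0366). Neither gene overlapped between the genotypes. The antiviral synthetase gene Oas1a rose by 1.99 ± 0.37 (0.0320) and its relative Oasl2 by 1.99 ± 0.35 (0.0296). Parp12 (1.13 ± 0.15, 0.0161), Parp9 (1.48 ± 0.28, 0.0320) and its partner ubiquitin ligase Dtx3l (1.31 ± 0.19, 0.0162) rose as well, though Parp9 and Dtx3l overlap on chromosome 16 and could share reads.

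Factors that drive the response were called as well. Irf9 rose by 0.76 ± 0.14 on the log2 scale (limma adjusted p = 0.0321) and Irf1, which interferon gamma also induces, by 0.93 ± 0.21 (0.0476). Further called genes of the list were Rtp4, the RNA sensor Ddx58 and Trim30a. Ifit1, Oas1a and Trim30a belong to families with close copies, and their counts are uncertain. Of the 14 genes, Irf7 alone was called without R6/2 library 2 or without wild-type library 1 or 2. Of the 14, 3 were called without R6/2 library 1, 2 without R6/2 library 3 and 12 without wild-type library 3 (all but Ifit1 and Ddx58). With the cortical markers as a covariate 9 of the 14 were called, and with limma-voom 9. The count was 8 with the 6 vehicle libraries alone, 4 without the 2 libraries high in Ttr and 3 with the replicate number as a block.

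**Figure D3:**
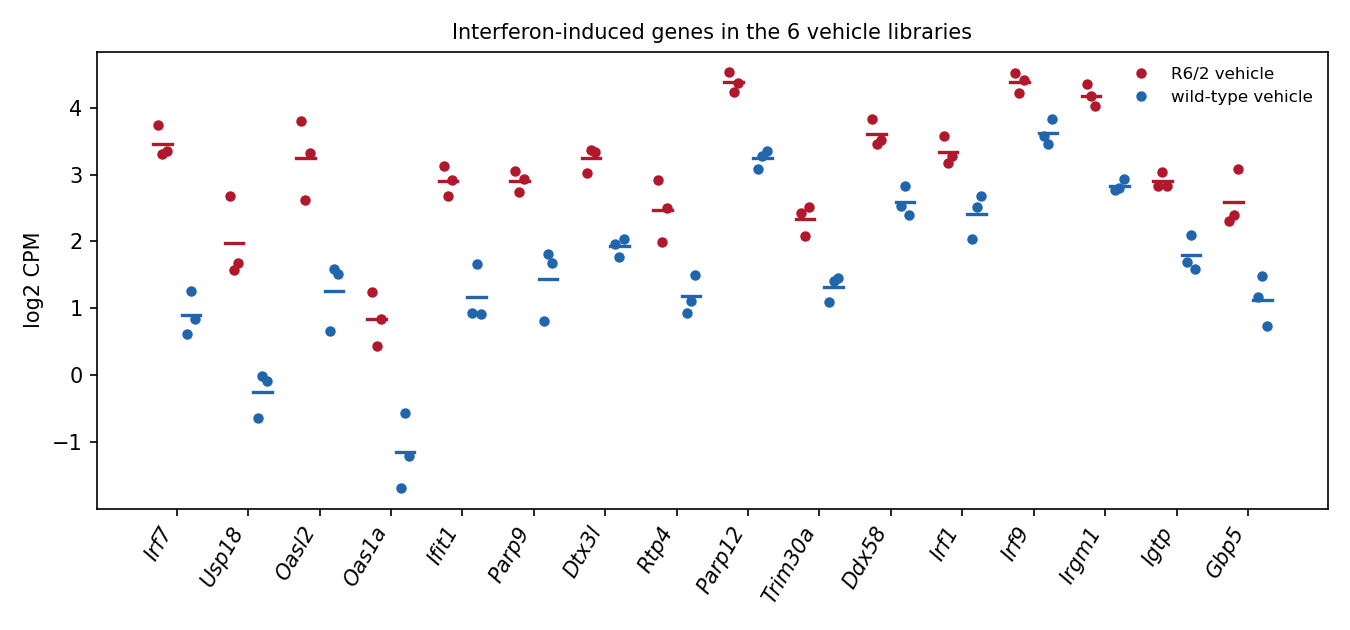
Level (log2 CPM) of 16 interferon-induced genes in the 3 R6/2 (red, left) and 3 wild-type (blue, right) vehicle libraries, where each point is 1 mouse and each line the mean of 3. Every R6/2 library lies above every wild-type library in all 16 genes, with the widest gap in Irf7.

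Irgm1, Igtp, Gbp5, Icam1 and Myd88, known as genes of immune defence, were called higher outside this list. Irgm1, a GTPase of cell-autonomous immunity, had 20.5, 18.0 and 16.2 CPM in R6/2 mice, against 6.83, 6.94 and 7.65 CPM in wild-type mice (log2 difference 1.35 ± 0.15, limma adjusted p = 0.0117). Its relative Igtp, chosen after its values were seen, rose by 1.10 ± 0.20 (adjusted p = 0.0310) and the guanylate-binding protein Gbp5 by 1.46 ± 0.32 (0.0468). Icam1, the adhesion molecule that leukocytes bind, had 3.87, 3.43 and 5.87 CPM in R6/2 mice and 1.42, 1.35 and 1.97 CPM in wild-type mice (1.46 ± 0.29, 0.0366). Myd88, the adaptor of Toll-like receptors, was the 1 called gene of 27 nucleic acid sensors and interferon receptors and rose by 0.81 ± 0.18 (0.0481). The groups did not overlap in any of these 5 genes. Of 23 antigen presentation genes 0 were called by limma (13 at an unadjusted p under 0.05), 10 were higher in every R6/2 library and the median was 0.81. In that list H2-K1 differed by 1.61 ± 0.40 (0.0662), and the copies of such genes are alike enough for reads to be shared between them. Markers of endothelium and of mural cells and fibroblasts had list medians of 0.63 and 0.51, with 0 and 1 called (6 and 2 at an unadjusted p under 0.05) and 7 of 14 and 4 of 14 genes higher in every R6/2 library, of which Twist1 was called. Endothelial markers summed to 557, 488 and 618 CPM in R6/2 mice and to 277, 434 and 438 CPM in wild-type mice. Their part in the rises of Icam1 and of the interferon genes was not tested. Of Irgm1, Gbp5, Igtp, Myd88 and Icam1 none was called without R6/2 library 2 or wild-type library 1 or 2 (adjusted p 0.0597 to 0.180), Irgm1 alone was without R6/2 library 1 or 3, and Gbp5 and Myd88 were not without wild-type library 3.

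None of the microglial genes on the lists was called. Csf1r, the receptor on which microglia depend, had 108, 98.1 and 143 CPM in R6/2 mice and 98.3, 107 and 98.9 CPM in wild-type mice, a log2 difference of 0.18 with a 95% interval of -1.31 to 1.67 (limma adjusted p = 0.900). Of 28 homeostatic microglial genes, 20 genes of activated microglia and 17 complement genes 0 were called by limma (3, 2 and 4 at an unadjusted p under 0.05), with medians of -0.03, -0.04 and -0.23. Homeostatic microglial genes summed to 694 to 978 CPM in R6/2 mice and to 745 to 871 CPM in wild-type mice. The interval and the calls take their spread from all 12 libraries, 6 of them from mice on PLX3397. In those 6, homeostatic genes summed to 93.3 to 120 CPM in R6/2 and to 91.3 to 121 CPM in wild type. The width of the Csf1r interval therefore also reflects the spread in mice on the drug. Of 17 cytokine and NF-kB genes Icam1 was called higher and Il33, an alarmin of glia, lower.

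A few genes that pattern other parts of the embryo had reads in every R6/2 library and nearly none in wild type. Of 144 developmental transcription factors listed 47 were in the table; 3 were called higher and 3 lower, with a median of 0.22. Pou4f1, a factor of sensory and habenular neurons, had 80, 90 and 43 reads in R6/2 libraries, against 1, 0 and 2 reads in wild-type libraries, a ratio of 69.0 (95% counting interval 23.3 to 337; limma adjusted p = 0.0161). Pax2, a factor of midbrain, hindbrain and kidney, had 188, 40 and 27 reads in R6/2 libraries and 0, 1 and 0 in wild-type libraries, a ratio of 248 (44.1 to 9824; adjusted p = 0.0222). Twist1, a factor of mesenchyme, had 154, 68 and 31 reads in R6/2 libraries and 1, 2 and 3 in wild-type libraries, a ratio of 41.0 (18.6 to 113; 0.0273). Each was present in every R6/2 library, and Pax2 and Twist1 were highest in R6/2 library 1, the library with the most choroid plexus and mural cell transcripts. These intervals cover counting error only. The called falls on the list were Gbx1, Lhx8 and Eomes, a T-box factor with 3, 6 and 5 reads in R6/2 libraries and 67, 201 and 162 in wild-type libraries. None of Pax2, Pou4f1, Twist1 and Eomes was called without R6/2 library 2 or wild-type library 1 or 2 (adjusted p 0.0699 to 0.185), Pou4f1 alone was without R6/2 library 1 (0.0407), and Eomes was not without R6/2 library 3 (0.0969) or wild-type library 3 (0.0621). No gene among 41 Polycomb and chromatin enzymes was called by limma (6 at an unadjusted p under 0.05), and their median was 0.08.

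Among the largest rises were Espn, Crybb3 and Ppl, best known from other tissues. Espn, an actin bundler of sensory hair cells, had 4.67, 5.76 and 3.81 CPM in R6/2 mice, against 0.809, 0.722 and 1.12 CPM in wild-type mice (log2 difference 2.43 ± 0.46, limma adjusted p = 0.0320). Crybb3, a crystallin of the lens, had 3.87, 3.08 and 2.98 CPM in R6/2 mice and 0.699, 0.361 and 0.903 CPM in wild-type mice (2.43 ± 0.43, adjusted p = 0.0296). Ppl, a desmosome protein of epithelia, had 12.1, 2.88 and 5.15 CPM in R6/2 mice and 1.42, 1.80 and 1.29 CPM in wild-type mice (1.92 ± 0.42, 0.0463). The groups did not overlap in these genes, and Ppl was highest in R6/2 library 1. Cdc45, a factor of DNA replication, rose by 1.70 ± 0.32 (0.0321). None of the 4 was called without any 1 of the R6/2 libraries (adjusted p 0.0597 to 0.120) or without wild-type library 1 or 2 (0.105 to 0.176), and Ppl and Cdc45 were not without wild-type library 3.

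Genes that follow activity, time of day and sterol level fell in part. Of 30 immediate early genes, which synaptic activity induces, 2 were called lower and 12 were lower in every R6/2 library (median -0.46). Egr2 had 0.696, 0.952 and 1.02 CPM in R6/2 mice, against 11.9, 10.2 and 4.75 CPM in wild-type mice (log2 difference -3.24 ± 0.61, limma adjusted p = 0.0320). Npas4 had 4.59, 7.99 and 11.0 CPM in R6/2 mice and 51.0, 50.1 and 26.1 CPM in wild-type mice (-2.46 ± 0.52, adjusted p = 0.0412). In both genes the highest R6/2 library stayed below the lowest wild-type library. Dbp, an output factor of the circadian clock, had 32.2, 31.2 and 36.7 CPM in R6/2 mice and 88.7, 96.5 and 69.0 CPM in wild-type mice (-1.33 ± 0.18, 0.0161). It was the 1 called gene of 20 clock genes, whose median was -0.58 and of which 9 were lower in every R6/2 library. The time of day at collection is not given in the sources used here. Of 30 cholesterol synthesis genes 3 were called lower and 14 were lower in every R6/2 library (median -0.21): the sterol oxidase Msmo1 fell by 0.88 ± 0.14 (0.0222) and Insig1, which retains the sterol sensor, by 0.83 ± 0.18 (0.0460).

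Hspa8, the constitutive Hsc70 chaperone, was the 1 called gene of 32 heat shock proteins and chaperones (median 0.08, with 8 higher and 3 lower in every R6/2 library). It had 876, 626 and 536 CPM in R6/2 mice, against 173, 181 and 189 CPM in wild-type mice (log2 difference 1.88 ± 0.34, limma adjusted p = 0.0296). The wild-type libraries lay close together, far below the lowest R6/2 library. Processed copies of Hspa8 exist in the mouse genome and may share its reads. Of Egr2, Npas4, Dbp, Msmo1, Insig1 and Hspa8 none was called without R6/2 library 2 or wild-type library 1 or 2 (adjusted p 0.0699 to 0.192). Without R6/2 library 1 Dbp and Msmo1 were called, without R6/2 library 3 Dbp alone was, and without wild-type library 3 all but Insig1 were.

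Of the 47 lists 22 had no gene called by limma, and limma-voom, whose 145 calls all lay among the 325, called none on them either. Among them were 69 respiratory chain subunits (median log2 difference 0.08, 2 genes at an unadjusted p under 0.05) and 31 proteasome subunits (median 0.22, 6 genes, with 10 higher in every R6/2 library and 0 lower). The 23 genes of PGC-1 and mitochondrial biogenesis had a median of -0.02 (4 genes at that p), the 20 ERK feedback genes one of -0.05 (2 genes) and the 52 collagens, laminins and matrix proteases one of 0.02 (16 genes). Ppargc1a, the PGC-1 alpha coactivator, had 25.6, 39.5 and 34.9 CPM in R6/2 mice and 60.9, 64.0 and 36.4 CPM in wild-type mice, and the difference of -0.67 ± 0.26 missed the threshold (limma adjusted p = 0.169). Bdnf, the cortical growth factor that supports striatal neurons, had 16.2, 9.91 and 10.7 CPM in R6/2 mice and 8.60, 6.26 and 13.1 CPM in wild-type mice, which overlapped (0.43 ± 0.95, adjusted p = 0.823). Of 29 genes of perineuronal nets and the lectican matrix (median -0.28) Hapln1, a link protein of hyaluronan, was called lower, with 5.99, 6.07 and 6.96 CPM in R6/2 mice and 36.3, 25.1 and 14.7 CPM in wild-type mice (-1.91 ± 0.33, 0.0273). Its call ended without wild-type library 1 or 2 or any 1 of the R6/2 libraries (0.0572 to 0.127). Acan, the aggrecan of nets, differed by 0.24 ± 0.26 (0.623), with a 95% interval of -0.34 to 0.82.

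**Figure D4:**
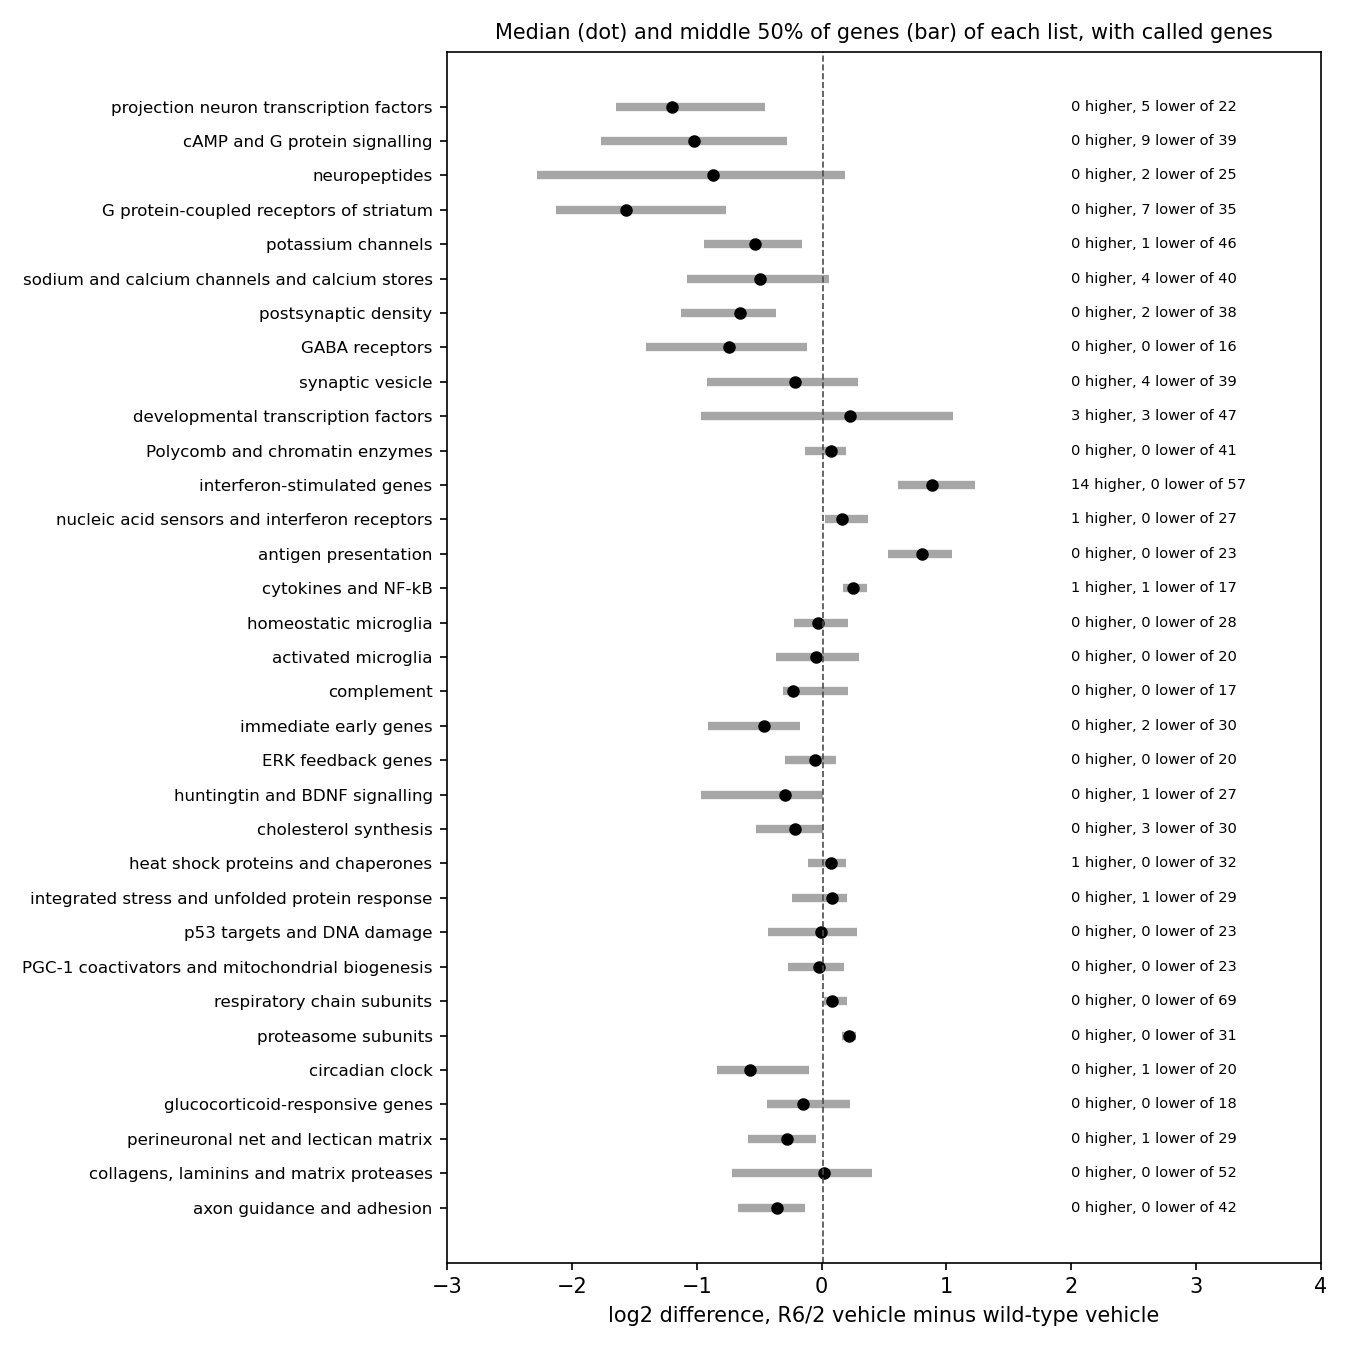
Median log2 difference (dot) and middle 50% of the genes (bar) of each list, R6/2 vehicle minus wild-type vehicle, with the called genes of those measured at the right and the median of all genes as a dashed line. Receptor and signalling lists of projection neurons have medians down to -1.56, and interferon-stimulated genes have one of 0.88.

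The same genotype difference was read in the 6 mice fed PLX3397, which share no library with the 6 above. Their spread entered the calls on vehicle, so the counts of genes called under the drug are no independent check. Of the 325 genes 276 had the same sign there (84.9%), against 50.1% of all genes. Of the 95 rises 81 had the same sign and 52 were called higher under the drug, where 17.1% of all genes were. Of the 230 falls 195 had the same sign and 145 were called lower, where 17.9% of all genes were. Penk was at 119.8, 279 and 174 CPM in R6/2 mice on PLX3397 and 2088, 1477 and 2032 CPM in wild-type mice on PLX3397 (log2 difference -3.36, limma adjusted p = 0.000450). Of the 57 interferon-stimulated genes 27 were called higher under the drug and 0 lower (median 1.04), and of the 14 called on vehicle all but Irf1 (0.06, adjusted p = 0.841) and Oas1a (0.89, 0.0857) were. Irgm1 differed by 1.07 (0.000972) and Igtp by 0.85 (0.00941), while Gbp5 (0.28, 0.513), Myd88 (0.38, 0.125) and Icam1 (-0.43, 0.265) were not called there. The difference itself changed with the drug, by the interaction test, in 77 of the 325 (17 of the rises and 60 of the falls), where 17.0% of all genes passed. Over all genes 2617 passed, against 537 without wild-type vehicle library 1 and 3532 without wild-type PLX3397 library 1. For Irf7 the genotype difference under PLX3397 was 1.33 (adjusted p = 0.00226), smaller than on vehicle by 1.22 (interaction adjusted p = 0.0309).

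Cholinergic, septal and GABA genes were among those whose sign turned. Slc5a7 was at 24.3, 38.6 and 7.98 CPM in R6/2 mice on PLX3397 and 16.0, 14.9 and 24.4 CPM in wild-type mice on PLX3397 (limma interaction on the log2 scale 3.92, adjusted p = 0.0184). Gbx1 (4.53, 0.0175), Lhx8 (4.09, 0.0174), Zic1 (3.81, 0.0268) and Gad2 (2.86, 0.0139) had interactions of the same sign. R6/2 PLX3397 libraries 1 and 2 stood apart within their group, with 6.90 and 8.34 CPM of Slc17a7, the glutamate transporter of cortical neurons, against 510.3 CPM in library 3. The 15 cortical markers summed to 417 and 395 CPM in these libraries, and to 350 CPM in wild-type PLX3397 library 1. Leaving out R6/2 PLX3397 libraries 1 and 2 leaves their group with 1 library. It is assumed to vary like the libraries of the other groups, so calls lost there do not show that interactions are absent. In that setting 291 of the 325 genes had the same sign, and limma called 0 interactions in all genes (2599 at an unadjusted p under 0.05; with all libraries limma-voom called 2596). The median genotype difference of the 9 cholinergic markers under the drug was 0.12 with them and -1.17 without them, and that of the 17 thalamic and septal markers 0.83 and -0.22. Penk differed by -3.40 in that 1 library against the 3 wild-type libraries.

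**Figure D5:**
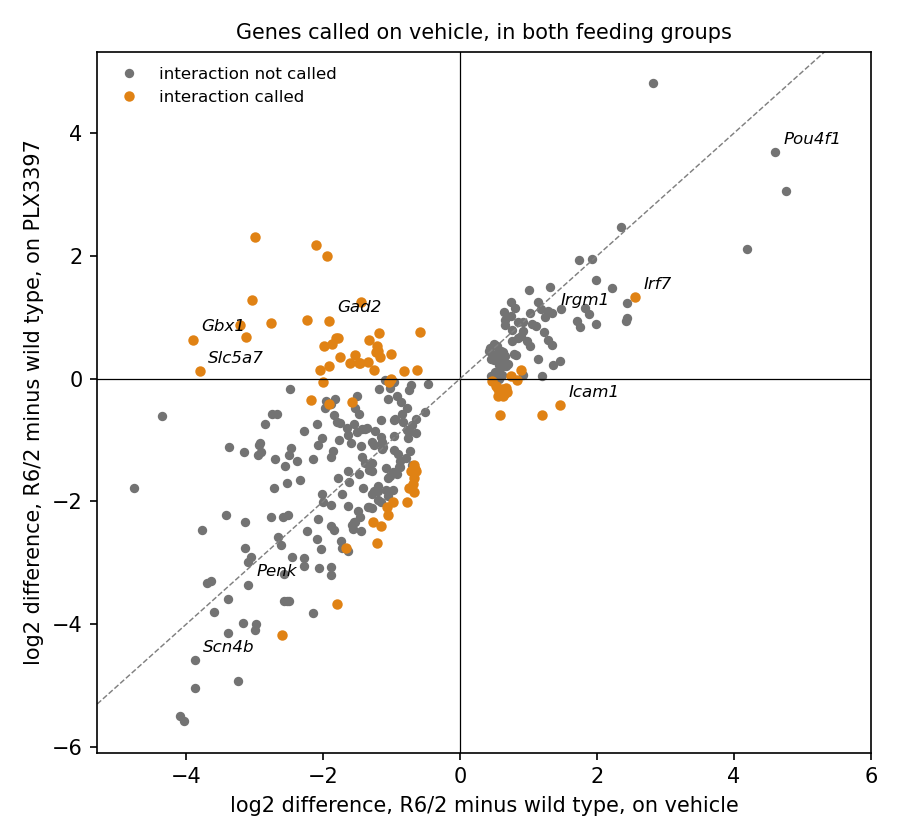
Log2 difference R6/2 minus wild type on vehicle (horizontal) and on PLX3397 (vertical) for the 325 genes called on vehicle, with genes that passed the interaction test in orange and the line of equal difference dashed. Of these genes 276 share the sign, and Slc5a7, Gbx1 and Gad2 lie above 0 on PLX3397 but below 0 on vehicle.

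Called rises and falls differed little from all genes in GC content of their transcripts: the median was 52.2% for rises, 52.9% for falls and 51.0% for all genes with a value. Median transcript length was 1.19 kb for rises, 1.80 kb for falls and 1.55 kb for all genes. Across 14305 genes, which are not independent, the log2 difference on vehicle had a Spearman's rho of 0.269 with GC content and -0.14 with length, and that on PLX3397 had rho of -0.458 and 0.262. With a GC and length trend removed from every library, 456 of 14305 genes were called on vehicle, 250 of them among the 325.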

How the data were processed

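Striatum was dissected and flash frozen, and libraries were made from total RNA with a TruSeq kit, per the labels' protocols. The authors deposited 1 table of log2 CPM for 12 libraries. STAR, featureCounts, edgeR, limma and the build mm10 are named in the submitters' processing notes, without versions. The values gave back whole reads per gene (100% within 0.1 of a read), 18902120 to 24293208 in a library. The authors' scaling factors lay between 0.935 and 1.09, and a library had 1 to 55 genes without a read. Printed CPM are antilogs of the deposited log2 values and hold the authors' small prior count. Replicates of 1 group correlated at r of 0.955 to 0.986 across genes in R6/2 and 0.969 to 0.983 in wild type.

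Genotype differences came from limma 3.58.1 in R 4.3.3: 1 mean per group over all 12 libraries, a moderated variance with an intensity trend, and Benjamini-Hochberg adjustment over 15397 genes, with a gene called at an adjusted p under 0.05. Alternatives were each library left out, a replicate block, limma-voom on the recovered reads, other scaling, prior count and filters, a GC and length trend removed, no intensity trend, and the vehicle libraries alone. The PLX3397 comparison and the interaction came from the same model. Counts, list medians and intervals were computed with Python 3.11.15, pandas 2.3.3 and scipy 1.17.1; read ratios have 95% counting intervals. Promoters and gene positions came from RefSeq (15078 genes matched by identifier). GC content and length came from GENCODE transcripts and were known for 92.9% of genes.

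Genes named were the 15 largest rises and falls with a mean of at least 1 CPM, the 10 smallest p in each direction, up to 4 members of each list with the smallest p, and a set of known striatal and interferon genes. Tacr1, P2ry1, Arpp21, Arpp19, Rap1gap, Six3, Chat, Ecel1, Gad1, Gad2, Plpp3, Oas1a, Irf9, Irf1, Trim30a, Rtp4, Ddx58 and Igtp were chosen after their values were seen. The comparison and the gene lists were chosen with earlier results of these data known. A few genes counted in the lists are not reported here by name.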

Additional observations from a re-analysis of the deposited data

Results flagged for a closer look

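In 20 named genes, listed below, the genotype difference on PLX3397 was not that on vehicle, by limma's interaction test at an adjusted p under 0.05. The values are the difference on PLX3397 minus that on vehicle, on the log2 scale. P2ry1 (2.69) and Wrap73 (-0.90), also named above, passed the same test. P2ry1, called lower on vehicle, was called higher on PLX3397 (1.24, limma adjusted p = 0.0149). Among cholinergic, septal and basal forebrain genes the interaction was 3.92 for Slc5a7, 4.09 for Lhx8, 3.81 for Zic1, 4.53 for Gbx1 and 1.39 for Isl1. Among GABA and glutamate genes it was 1.19 for Gad1, 2.86 for Gad2 and 2.10 for Grm5, and among other neuronal genes 1.92 for Pde1c, 1.62 for Cacna2d2, 1.50 for Hapln1 and 1.72 for Ppargc1a. In astrocyte genes it was 1.66 for Slc4a4, 0.99 for Gja1 and 1.73 for Slc7a11. It was negative for Hrh3 (-1.10), Ppp1r1a (-1.47) and Abhd11os (-1.58), whose falls were larger on PLX3397, for Irf7 (-1.22), whose rise was smaller on PLX3397, and for Icam1 (-1.89), which differed by -0.43 on PLX3397 and by 1.46 on vehicle. Without R6/2 PLX3397 libraries 1 and 2, which were low in Slc17a7, limma called 0 interactions in all genes, with 0.193 as the lowest adjusted p. That setting leaves the group with 1 library, assumed to vary like those of the other groups, so it does not show that interactions are absent.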

How the results depend on the processing

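The count of 325 called genes was 103 without both libraries high in Ttr, 94 with the cortical markers as a covariate and 145 with limma-voom, and 1 to 561 with each library left out in turn. The count with the same sign on PLX3397, 276 of 325, was 92 of 103, 88 of 94 and 126 of 145 under those 3 settings. It ran from 1 of 1 to 451 of 561 with 1 library left out. The 2617 interactions were 0 without the 2 libraries low in Slc17a7 (which leaves 1 library in that group, with the spread taken from the others), 765 with a GC and length trend removed, 1208 with the cortical covariate and 537 to 3532 with 1 library left out. The cause was not tested. With the replicate number as a block the counts were 40, 34 and 1432; deviations of libraries with the same number correlated at -0.2, 0.0838 and -0.267, and the labels do not say what a number shares, so the block was not taken as a pairing. A model of the 6 vehicle libraries alone called 429 genes, of which 211 were among the 325. Rises were 29.2% of the 325 calls, against 17.0% in that model. Over 107 genes and 2455 alternative values, 1640 kept direction and call, 792 kept direction without the call, 18 gained one and 5 turned sign: Slc17a7 (-0.13) and Bdnf (-0.21) with the cortical covariate, Ttr without both Ttr libraries (-0.47) or R6/2 vehicle library 1 (-0.47 to 3.03 with 1 library left out), and Gfap without R6/2 vehicle library 2 (-0.80 to 0.10 with 1 library left out). Rescaling moved the median of all genes by under 0.01 on the log2 scale. The cortical covariate and the removal of the Ttr and Slc17a7 libraries were chosen after seeing the data.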
